A study of Homo sapiens with 12 samples.

Results

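The genes described here encode carriers of amino acids and closely related compounds: every gene of the count table whose symbol falls in the solute carrier families SLC1, SLC3, SLC6, SLC7, SLC36, SLC38 or SLC43. They were chosen by symbol alone, and 34 of the 20771 genes in the table qualified. GENCODE release 44 annotates 59 protein-coding genes with such symbols, and the other 25, among them the second heavy chain SLC3A1 and the glutamate transporter SLC1A2, have no row in the table and were not analysed here. The libraries came from EW8-RRM1-KO and TC71-RRM1-KO, knockout derivatives of 2 Ewing sarcoma lines that the study isolated as single-cell clones and grew in DMEM with 10% serum. In all of them the endogenous RRM1 gene, which encodes a subunit of ribonucleotide reductase, was cut by CRISPR/Cas9, and a codon-optimized RRM1 transgene was expressed only under doxycycline. Each line gave 3 libraries labelled 0 h, with doxycycline present, and 3 labelled 48 h, after 48 hours in its absence. Both arms carry the knockout and the transgene, so that the removal of doxycycline and the loss of RRM1 cannot be told apart, and neither can a line and its clone. The comparisons ask which transporter genes changed after the withdrawal in each line, whether the lines differed in this, and how they differed before it.

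Amino acids cross the plasma membrane through transporters that either move them with sodium or protons or exchange an internal amino acid for an external one. Several exchangers of the SLC7 family reach the cell surface only as a light chain bound to the heavy chain SLC3A2 (also called CD98 heavy chain or 4F2hc). When amino acids run short or the endoplasmic reticulum is stressed, kinases of the integrated stress response favour translation of the transcription factor ATF4, which binds C/EBP-ATF response elements and raises the transcription of many transporter and biosynthesis genes.

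Counts per library summed to between 18468485 and 35698991. Values are given as counts, as CPM (counts per 1000000 of the library total, scaled with TMM factors), or, where genes are compared with each other, per length of the canonical transcript. edgeR's quasi-likelihood model took in 16515 genes and all 12 libraries, and 33 of the 34 transporter genes were among those tested. The exception was SLC6A4, the serotonin transporter, with 9 counts or fewer in each library. A gene is said to have risen or fallen where its adjusted p was below 0.05, and to have been called where its fold change also exceeded 2. Nothing in the labels states that replicates were separate cultures, so p-values measure only the spread between these libraries. All 9 Ewing sarcoma markers examined were present, at a summed 2587 to 2976 CPM. Of 11 markers of other cell types, 6 had no row in the table, PTPRC, CDH5 and ALB had at most 6 counts in any library, and EPCAM had 2 to 43. The summed level of the 5 with a row was 10.1 to 13.0 CPM in EW8 at 0 h and 34.2 to 42.8 at 48 h, and 20.3 to 23.1 and 30.9 to 37.8 CPM in TC71. Nearly all of it was COL1A1, and its part in the results was not tested. Endogenous RRM1 counts rose at 48 h (log2 fold change 2.88 in EW8 and 0.65 in TC71) and do not check the labels, because both arms carry the same edit.

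Per length, the most abundant transporter mRNAs were SLC3A2 at 396 TPM (counts per kilobase scaled to sum to 1000000, here the mean of the 4 group means), SLC1A4 at 301, SLC1A5 at 261, SLC38A2 at 256, SLC7A5 at 134 and SLC7A1 at 85.4. SLC3A2 ranged from 174 TPM in TC71 at 0 h to 893 TPM in EW8 at 48 h, the only group where it was highest. SLC38A2 was highest in EW8 at 0 h (281 TPM) and SLC1A4 in TC71 (275 TPM at 0 h and 435 at 48 h). SLC1A4 (ASCT1) and SLC1A5 (ASCT2) exchange small neutral amino acids, and SLC1A5 also glutamine. SLC38A2 (SNAT2) takes up neutral amino acids with sodium, SLC7A5 (LAT1) exchanges large neutral amino acids, and SLC7A1 (CAT1) carries arginine and lysine. SLC1A5 (231 to 314 TPM over the groups) and SLC38A2 (204 to 333) are neighbours in this order whose ranges overlap, as do those of SLC1A4 (187 to 435) and SLC1A5. The order depends on the length used: with all annotated exons as the length, SLC1A5 ranked 1 at 391 TPM and SLC3A2 ranked 5 at 201 TPM. The least abundant was SLC6A4 at 0.0528 TPM, and SLC43A2, SLC38A3 and SLC7A7 also lay below 1 TPM on average.

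**Figure D1:**
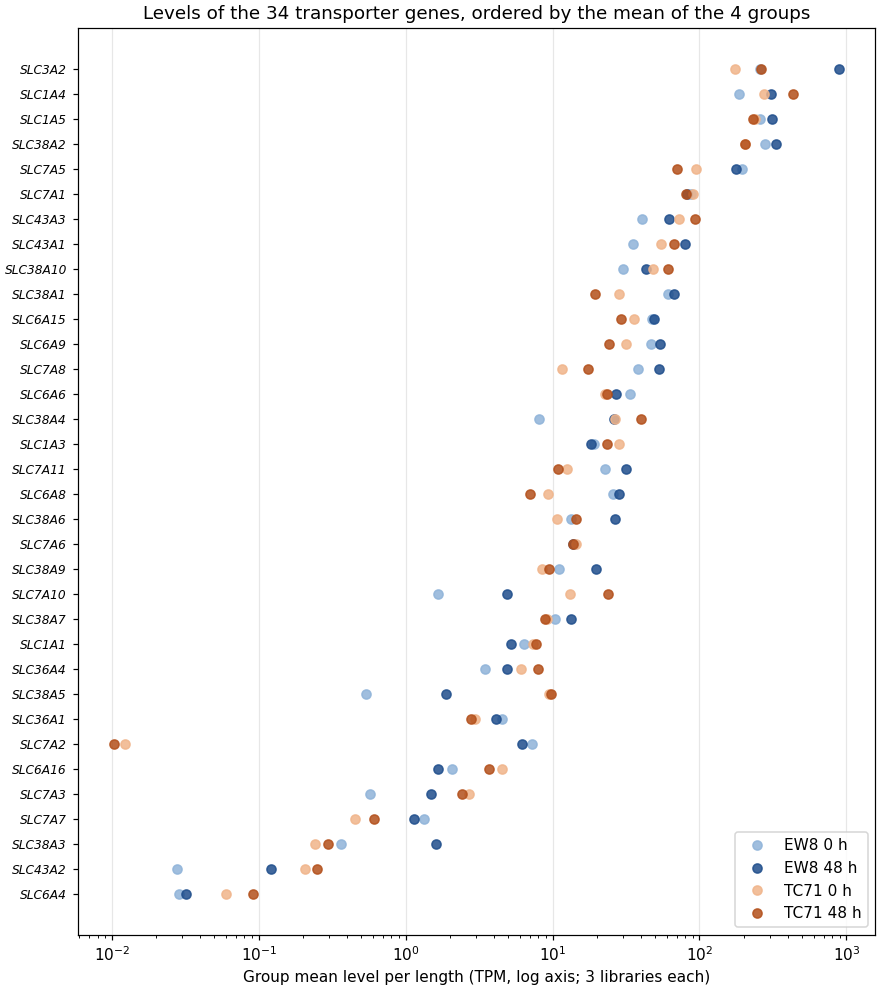
Mean level of each of the 34 transporter genes in the 4 groups (3 libraries each), in TPM on a logarithmic axis, ordered by the mean of the groups. SLC3A2 in EW8 at 48 h stands to the right of every other point, and SLC7A2 in TC71 lies far to the left of SLC7A2 in EW8.

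In EW8, 7 of the 33 transporter genes tested were called higher at 48 h, where 13.9% of all genes tested were, and 0 were called lower, where 3.35% were. The 7 were SLC38A3, SLC43A2, SLC38A5, SLC3A2, SLC38A4, SLC7A10 and SLC7A3. At an adjusted p below 0.05 and any fold, 16 rose (37% of all genes did) and 10 fell (31.6% did), and at an unadjusted p below 0.05 the counts were also 16 and 10 (38% and 32.6% of all genes). The libraries of the 2 times did not overlap in CPM for 28 of the 33 genes, and for 71.1% of all genes. The Wald test of DESeq2 called 7 higher and 0 lower as well. The median log2 fold change was 0.12 over the 33 transporter genes and 0.03 over all genes tested. Scaling to library totals alone moved the median of all genes in EW8 to 0.16, and 19 transporter genes rose and 8 fell with it, where 43.6% and 24.4% of all genes did. In these bulk libraries, fewer cells of a type and less RNA per cell cannot be told apart.

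In TC71, 0 transporter genes were called higher by edgeR (3.26% of all genes tested were) and 0 lower (0.854% were), and DESeq2 also called 0 in each direction. At an adjusted p below 0.05 and any fold, 10 rose, where 22.9% of all genes did, and 11 fell, where 19.2% did. At an unadjusted p below 0.05, 10 were higher (26.3% of all genes were) and 13 lower (23% were). The libraries of the 2 times did not overlap for 24 genes, and for 49.6% of all genes. The median log2 fold change of the transporter genes was -0.04. Set side by side, 10 genes rose in both lines (17.6% of all genes did), 6 fell in both (14.3%), 5 rose in EW8 without passing in TC71 (18.2%) and 4 fell in EW8 without passing in TC71 (15.7%). Another 4 fell in TC71 without passing in EW8 (3.72% of all genes), 3 passed in neither (24%), and 1, SLC7A11, rose in EW8 and fell in TC71 (1.22%).

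**Figure D2:**
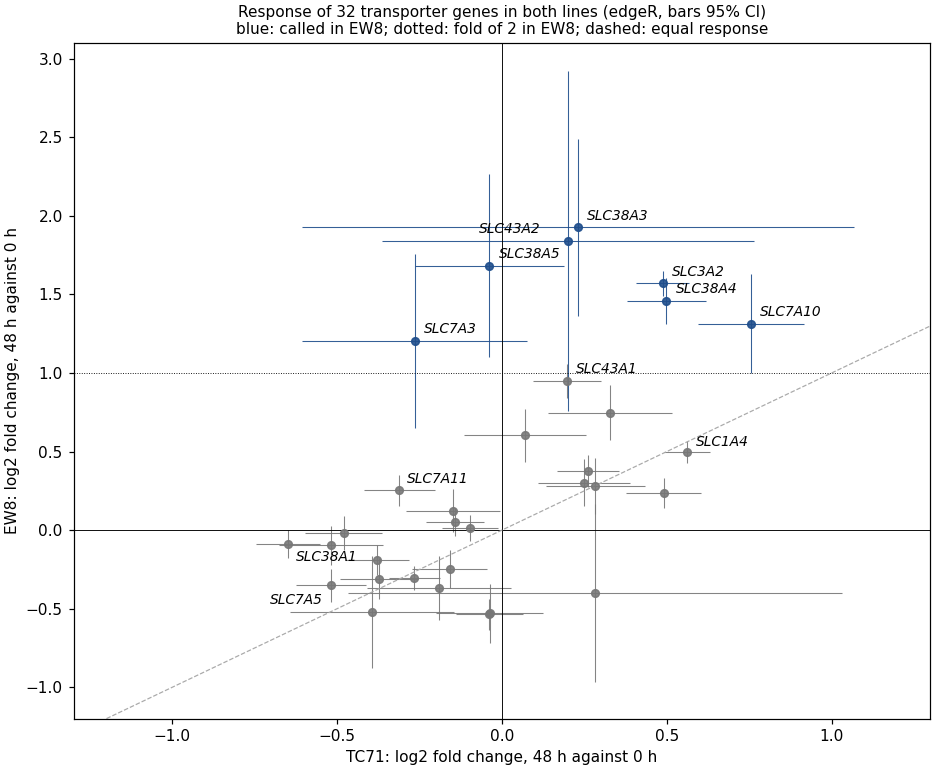
Log2 fold change from 0 h to 48 h of 32 transporter genes in TC71 (horizontal axis) and EW8 (vertical axis), with 95% confidence intervals derived here from edgeR's test. SLC7A2 is left out because TC71 held at most 2 counts of it. The 7 genes called in EW8 lie above the dotted line, which marks a fold of 2, and no gene passes a fold of 2 in TC71.

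The heavy chain SLC3A2 (ENSG00000168003, chromosome 11 from 62856004 to 62888880 on the + strand, GRCh38) showed the smallest adjusted p of all transporter genes in EW8. Its levels were 224, 236 and 238 CPM at 0 h and 693, 682 and 697 CPM at 48 h in EW8, and 146, 154 and 144 CPM at 0 h and 206, 201 and 214 CPM at 48 h in TC71. The groups of each line did not overlap, and TC71 at 48 h stayed below EW8 at 0 h. The log2 fold change was 1.57 (SE 0.04, adjusted p = 3.26e-27, edgeR) in EW8 and 0.49 (SE 0.04, adjusted p = 3.86e-12) in TC71. The difference between these responses was 1.08 (SE 0.06, adjusted p = 3.83e-17). Across all alternative settings, the EW8 value stayed between 1.51 and 1.69.

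Among the 6 light chains with a row in the table, 1 was called higher in EW8 (13.9% of all genes were) and none lower (3.35% were), with 3 rising (37% did) and 2 falling (31.6% did) at any fold. SLC7A5, by length the most abundant of them, went the other way from its heavy chain. Its levels were 413, 447 and 414 CPM at 0 h and 346, 325 and 326 CPM at 48 h in EW8, and 198, 204 and 181 against 141, 124 and 141 CPM in TC71. Every library at 48 h lay below those at 0 h of the same line. On the log2 scale SLC7A5 fell by 0.35 (adjusted p = 7.35e-07, edgeR) in EW8, while TC71 fell by 0.52 (adjusted p = 8.97e-09), and the difference between the lines did not pass the test (0.17, adjusted p = 0.057). A pseudogene, SLC7A5P1, has a row of its own with 7 to 11 counts at 0 h and 31 to 46 at 48 h in EW8, and how reads common to both were assigned is not known.

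SLC7A11, the light chain of the cystine and glutamate exchanger xCT, was the transporter gene that rose in EW8 and fell in TC71. Its levels were 109, 108 and 98.6 CPM at 0 h and 124, 130 and 121 CPM at 48 h in EW8, against 57.6, 52.7 and 54.7 and then 44.5, 45.9 and 42.8 CPM in TC71. The groups of neither line overlapped. The log2 fold changes were 0.25 (adjusted p = 2.32e-05, edgeR) and -0.31 (adjusted p = 1.24e-05), and they differed by 0.56 (SE 0.07, adjusted p = 5.49e-08). Exons of the antisense gene SLC7A11-AS1 cover 8.97% of its exon bases, and that gene had at most 10 counts in any library.

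SLC7A10 (Asc-1), which exchanges small neutral amino acids such as serine, was low in EW8 and higher in TC71, and rose in both. EW8 counts were 29, 31 and 54 before and 79, 73 and 78 after the withdrawal, or 1.27, 1.78 and 1.65 and then 4.20, 3.66 and 3.82 CPM. In TC71 it had 11, 11.7 and 12 CPM at 0 h and 19.7, 19.1 and 19.6 at 48 h. All libraries at 48 h lay above those at 0 h of the same line. The log2 fold change was 1.31 (SE 0.16, adjusted p = 3.64e-09, edgeR) in EW8 and 0.76 (SE 0.08, adjusted p = 1.58e-09) in TC71, which was the largest rise among the 33 transporter genes tested in TC71, and the difference was 0.56 (adjusted p = 0.00885). Exons of LRP3 on the other strand cover 6.46% of the exon bases of SLC7A10. The part of LRP3 in these counts was not tested.

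SLC7A8 (LAT2), a second exchanger of neutral amino acids, rose by less in EW8 than in TC71, with log2 fold changes of 0.24 (adjusted p = 4.13e-05, edgeR) and 0.49 (adjusted p = 9.62e-09) and a difference of -0.26 (adjusted p = 0.00414). SLC7A6 (y+LAT2), which exchanges cationic for neutral amino acids, fell on the log2 scale, to -0.25 (adjusted p = 0.00034) in EW8 and to -0.16 (adjusted p = 0.0225) in TC71. Its value is uncertain, because 44.4% of its exon bases also belong to SLC7A6OS on the other strand and the strand setting of the counting is not given in the sources used here. SLC7A7 (y+LAT1), with 6 to 36 counts a library, passed the test in neither line.

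The ratio of heavy to light chain mRNA therefore moved in both lines. Per length, SLC3A2 over the sum of the 6 light chains was 0.945 ± 0.0428 (SD, n = 3) at 0 h and 3.17 ± 0.0993 at 48 h in EW8, a 3.35-fold higher ratio. In TC71 it was 1.18 ± 0.0301 at 0 h and 1.90 ± 0.0449 at 48 h, 1.61-fold higher. The libraries of the 2 times did not overlap in either line, and a two-sided exact permutation test gave p = 0.1 in each, the smallest p that 3 against 3 libraries allow. The summed light chains were 131 ± 5.41 and 116 ± 3.28 CPM per kilobase in EW8 and 66.2 ± 2.92 and 57.7 ± 2.37 in TC71 at 0 h and 48 h. On the TPM scale that sum was 272 ± 12.7 and 282 ± 8.40 in EW8, so its direction there depends on the scale, while the ratio does not. With all exons as length the ratio was 0.305 and 1.04 in EW8 and 0.390 and 0.657 in TC71. These are mRNA levels, and the chains at the cell surface were not measured here.

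**Figure D3:**
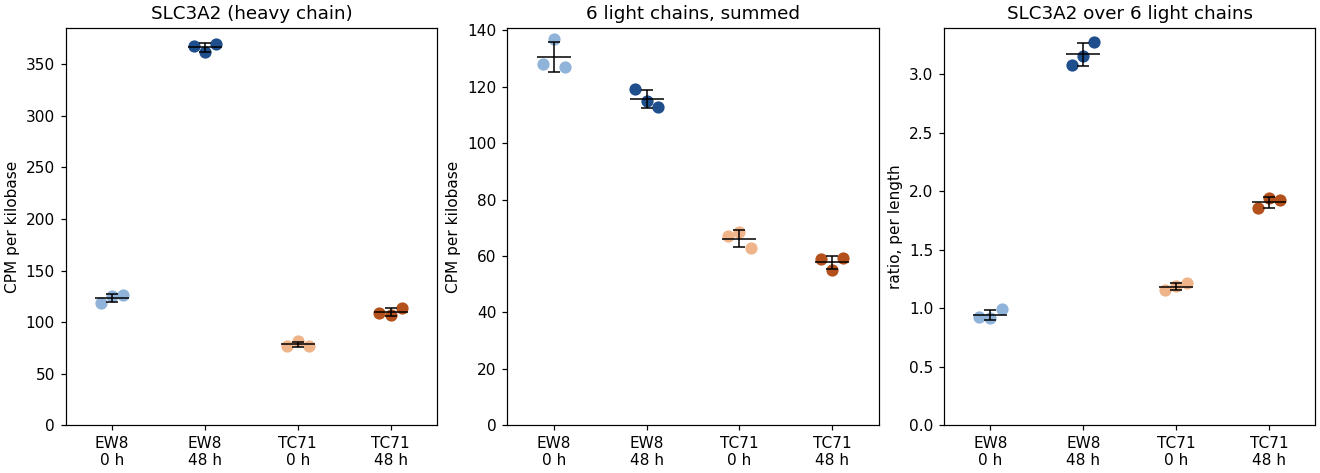
SLC3A2 and the sum of 6 light chains (SLC7A5, SLC7A6, SLC7A7, SLC7A8, SLC7A10 and SLC7A11) in CPM per kilobase, and their ratio, in each library (points) with the mean and SD of the 3 libraries of a group. The ratio lies between 0.914 and 0.994 in EW8 at 0 h and between 3.08 and 3.28 at 48 h, with a smaller shift in TC71.

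Summed over the 34 transporter genes, the level per length was 841 ± 8.28 CPM per kilobase at 0 h and 1130 ± 4.60 at 48 h in EW8 (SD, n = 3), and 699 ± 9.97 and 761 ± 19.4 in TC71. Without SLC3A2, the sums were 718 ± 6.84 and 763.5 ± 0.453 in EW8 and 621 ± 7.53 and 651 ± 15.8 in TC71. Each of these 4 pairs was separated between the times, with an exact permutation p of 0.1, the smallest possible. The size depends on the scale: in TPM the sum of all 34 was 1750 ± 25.9 and 2754 ± 13.0 in EW8, 1.57 times as high against 1.34 times in CPM per kilobase. Without SLC3A2 it was 1493 ± 25.1 and 1861 ± 2.91 TPM, 1.25 times as high against 1.06 times. In EW8, SLC3A2 alone went from 123 ± 4.06 to 366 ± 4.18 CPM per kilobase.

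The cationic transporters went in different directions. SLC7A1, with 307, 321 and 293 CPM at 0 h and 246, 253 and 245 CPM at 48 h in EW8, fell by 0.30 on the log2 scale (adjusted p = 1.79e-08, edgeR). TC71 had 307, 299 and 299 and then 252, 245 and 256 CPM, a fall by 0.27 (adjusted p = 9.11e-07). The lines started at and came to nearly the same levels, and the difference of their responses was -0.04 (95% confidence interval -0.15 to 0.07, adjusted p = 0.586).

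SLC7A3 (CAT3) was among the low transporter genes. EW8 counts were 16, 12 and 15 before and 20, 29 and 32 after the withdrawal, against 75, 53 and 67 and then 66, 67 and 60 in TC71. Scaled to library size, these are 0.458 to 0.701 and then 1.06 to 1.57 CPM in EW8, without overlap, and every TC71 library stayed above them at 1.86 to 2.79 CPM. The log2 fold change was 1.20 (SE 0.27, adjusted p = 0.000214, edgeR) in EW8 and -0.26 (adjusted p = 0.212) in TC71, and the difference was 1.47 (SE 0.32, adjusted p = 0.000264). Without replicate 3 of EW8 at 0 h, the EW8 value was 0.94 (adjusted p = 0.00854), below a fold of 2.

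SLC7A2 (CAT2), the inducible arginine transporter, was well covered in EW8 and near 0 in TC71. EW8 had 608, 451 and 882 counts before and 305, 432 and 416 after the withdrawal, and TC71 had 1, 1 and 1 and then 0, 1 and 2. The EW8 levels of 26.6, 25.8 and 26.9 CPM and then 16.2, 21.7 and 20.4 CPM did not overlap and fell by 0.45 on the log2 scale (adjusted p = 1.62e-05, edgeR). Against a floor of 3 counts in a TC71 library, EW8 was at least 176-fold higher at 0 h and at least 142-fold higher at 48 h. With both TC71 groups at or under that floor, no fold change is described for TC71.

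Of the 9 sodium-coupled neutral transporters of the SLC38 family, 3 were called higher in EW8 (13.9% of all genes tested were), 6 rose at any fold (37% did) and none fell (31.6% did). In TC71, 3 rose (22.9% of all genes did) and 1 fell (19.2% did). SLC38A4 (SNAT4) was the most abundant of those called. It had 14.9, 14.5 and 17.1 CPM at 0 h and 40.0, 43.3 and 45.9 CPM at 48 h in EW8, and 48.0, 45.3 and 49.6 and then 64.1, 72.4 and 65.8 CPM in TC71. Within each line the times were apart, and EW8 at 48 h met TC71 at 0 h only in its highest library. It lies on chromosome 12 (46764761 to 46832408 on the - strand), beside SLC38A1 and SLC38A2. Its log2 fold change was 1.46 (SE 0.07, adjusted p = 5.94e-19, edgeR) in EW8 and 0.50 (SE 0.06, adjusted p = 1.84e-08) in TC71. The difference of 0.96 (adjusted p = 1.92e-10) lay just under a fold of 2, and passed it at 1.04 with library totals alone.

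SLC38A3 and SLC38A5 (SNAT3 and SNAT5), which carry glutamine, asparagine and histidine and can run in either direction, were at low counts in EW8. SLC38A3 counts were 13, 9 and 15 before and 38, 38 and 39 after the withdrawal in EW8, against 7, 11 and 4 and then 13, 7 and 11 in TC71. The times were apart in EW8 and overlapped in TC71. The log2 fold change was 1.93 (SE 0.28, adjusted p = 2.03e-07, edgeR) in EW8 and 0.23 (adjusted p = 0.684) in TC71, with a difference of 1.70 (SE 0.52, adjusted p = 0.00707). Without replicate 2 of TC71 at 0 h, which held 11 of the 22 counts of its group, that difference was 1.18 (adjusted p = 0.107). The gene passed the filter through EW8, where it is high, and TC71 fitted alone did not give it enough counts for a test.

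SLC38A5 counts in EW8 were 9, 13 and 13 before and 24, 23 and 45 after the withdrawal, or 0.394, 0.745 and 0.397 and then 1.28, 1.15 and 2.20 CPM. TC71 had 239, 170 and 196 counts and then 216, 214 and 274, or 8.11 to 8.90 and 7.98 to 8.47 CPM. The EW8 groups did not overlap, and TC71 lay above both of them. The log2 fold change was 1.68 (SE 0.29, adjusted p = 3.87e-06, edgeR) in EW8 and -0.04 (adjusted p = 0.811) in TC71, and the responses differed by 1.72 (SE 0.31, adjusted p = 1.95e-05). A filter of at least 10 counts in every library leaves out SLC38A3, SLC38A5, SLC43A2, SLC7A2 and SLC7A7, besides SLC6A4.

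**Figure D4:**
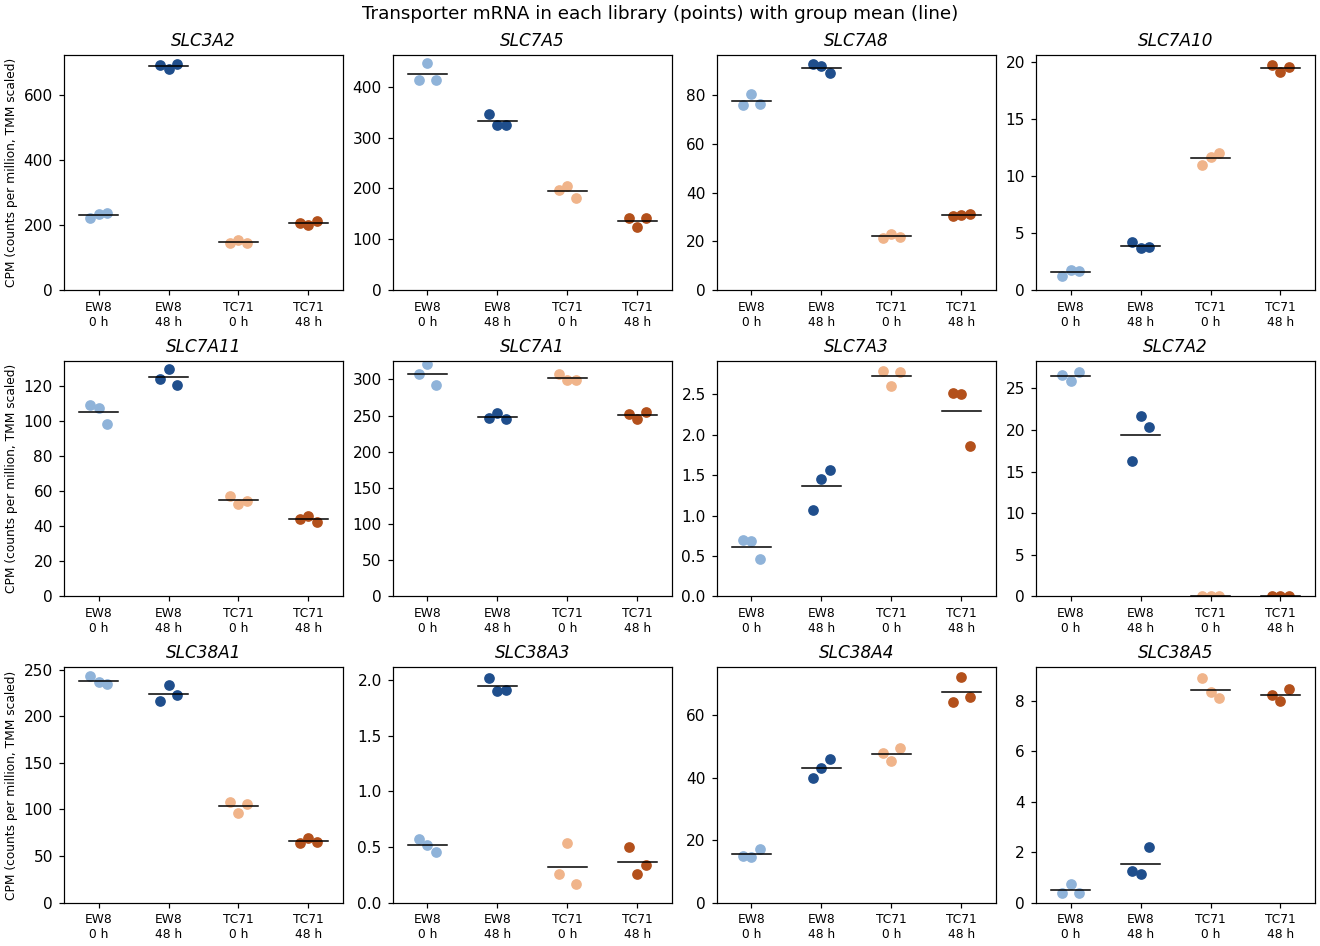
CPM of 12 transporter genes in each library (points, 3 a group) with the group mean (line), on linear axes from 0. SLC3A2, SLC38A3, SLC38A4, SLC38A5, SLC7A3 and SLC7A10 rise in EW8, SLC7A5 and SLC7A1 fall in both lines, and SLC7A11 goes up in EW8 and down in TC71.

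The abundant SLC38 members behaved otherwise. SLC38A1 (SNAT1), a glutamine transporter, had 243, 237 and 235 CPM at 0 h and 216, 234 and 222 CPM at 48 h in EW8, where it did not pass the test (-0.09, adjusted p = 0.0732, edgeR). In TC71 it had 108, 96.1 and 106 CPM and then 64.1, 68.9 and 65.0, a fall by 0.65 on the log2 scale (adjusted p = 3.41e-13) and the largest fall of a transporter gene there. The responses differed by 0.56 (adjusted p = 8.7e-09). SLC38A2, with 593 to 687 CPM in EW8 and 409 to 459 CPM in TC71, passed in neither line, with a log2 fold change of 0.02 in EW8 (95% confidence interval -0.07 to 0.10) and -0.10 in TC71 (-0.18 to -0.01, adjusted p = 0.0586).

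Of the rest of the family, SLC38A9, the lysosomal arginine sensor of the mTORC1 pathway, had 12.8 to 14.2 CPM at 0 h and 19.9 to 21.2 CPM at 48 h in EW8, a log2 fold change of 0.60 (adjusted p = 6.91e-08, edgeR). It was at 8.93 to 11.2 CPM in all TC71 libraries (0.07, adjusted p = 0.563), and the difference was 0.53 (adjusted p = 0.000483). SLC38A6 rose in both lines, by 0.75 (adjusted p = 1.48e-09) and 0.33 (adjusted p = 0.00423). SLC38A10 rose by 0.30 and 0.25, and SLC38A7, a lysosomal glutamine exporter, passed in neither.

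All 3 SLC43 genes rose in EW8, where 37% of all genes did. SLC43A1 (LAT3), a uniporter of large neutral amino acids, had 40.8, 46.1 and 41.0 CPM at 0 h and 78.2, 83.1 and 84.8 CPM at 48 h, a log2 fold change of 0.95 (SE 0.05, adjusted p = 2.44e-17, edgeR), just below a fold of 2. In TC71 it rose by 0.20 (adjusted p = 0.00199), and the difference was 0.75 (adjusted p = 2.27e-10). SLC43A3, a carrier of purine nucleobases, rose by 0.38 in EW8 and 0.26 in TC71, with 29.9% of its exon bases shared with another protein-coding gene model on the same strand.

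SLC43A2 (LAT4), a uniporter like LAT3, held 2, 2 and 4 counts before and 6, 10 and 8 after the withdrawal in EW8, and 19, 21 and 13 and then 26, 19 and 28 in TC71. Summed, these are 8 and 24 counts in EW8, a ratio of 3.70 after scaling with a 95% exact counting interval of 1.61 to 9.54. EW8 was called (log2 1.84, adjusted p = 0.00269, edgeR), but fitted alone the EW8 libraries did not give the gene enough counts for a test. The difference between the lines was 1.64 (adjusted p = 0.0242), and it did not pass with DESeq2 (1.69, adjusted p = 0.0661). Nor did it pass without replicate 1 or 3 of EW8 at 0 h, replicate 2 of EW8 at 48 h or replicate 2 of TC71 at 0 h (1.39 to 1.76, adjusted p = 0.0536 to 0.0779 by edgeR).

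The SLC1 exchangers differed from each other. SLC1A4 had 408, 409 and 411 CPM at 0 h and 570, 576 and 588 CPM at 48 h in EW8, and 562, 579 and 561 and then 823, 819 and 866 CPM in TC71. It rose without overlap in both, by 0.50 (SE 0.03, adjusted p = 1.04e-14, edgeR) and 0.56 (SE 0.03, adjusted p = 3.95e-15) on the log2 scale, and the difference of the responses was -0.06 (95% confidence interval -0.16 to 0.04, adjusted p = 0.294). SLC1A5, with 342 to 382 CPM in EW8 and 262 to 321 CPM in TC71, did not pass in EW8 (0.05, adjusted p = 0.33) and fell by 0.14 in TC71 (adjusted p = 0.00871). Exons of a noncoding gene on the other strand cover 23.4% of its exon bases. The glutamate transporters SLC1A1 (EAAT3) and SLC1A3 (EAAT1) both fell in EW8, by 0.53 (adjusted p = 4.67e-06) and 0.31 (adjusted p = 7.2e-05), and SLC1A3 also in TC71, by 0.37 (adjusted p = 3.59e-06).

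None of the 5 SLC6 genes tested rose in either line, where 37% of all genes rose in EW8 and 22.9% in TC71. The glycine transporter SLC6A9 (GlyT1) shares 7.87% of its exon bases with CCDC24 on the other strand. It had 69.5, 76.7 and 68.9 CPM at 0 h and 74.8, 69.8 and 67.2 CPM at 48 h in EW8, which overlap (-0.02, adjusted p = 0.775, edgeR). TC71 had 43.2, 46.4 and 46.7 and then 33.6, 32.6 and 31.5 CPM, a fall by 0.48 on the log2 scale (adjusted p = 2.41e-08), and the lines differed by 0.46 (adjusted p = 8.6e-06). The creatine transporter SLC6A8 followed the same course, at -0.10 in EW8 (adjusted p = 0.166) and with a fall by 0.52 (adjusted p = 1.79e-06) in TC71. The taurine transporter SLC6A6 fell by 0.54 in EW8 (adjusted p = 1.16e-11) and stood at -0.04 in TC71 (adjusted p = 0.568). SLC6A15, a carrier of branched-chain amino acids and proline, and the orphan SLC6A16 fell in both lines. Of the proton-coupled pair, SLC36A1 (PAT1) fell by 0.37 in EW8 (adjusted p = 0.00154), and SLC36A4 (PAT4) rose by 0.28 in each line (adjusted p = 0.0056 and 0.00211).

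Tested as an interaction, 5 transporter genes were called with a higher response in EW8 than in TC71, where 7.28% of all genes were, and 0 with a lower one, where 0.981% were. These 5 were SLC38A5, SLC38A3, SLC43A2, SLC7A3 and SLC3A2. DESeq2 called 4 and 0, without SLC43A2. At an adjusted p below 0.05 and any fold, 17 differed with a higher value in EW8 (25.7% of all genes did) and 3 with a lower one, SLC1A1, SLC6A6 and SLC7A8 (22.4% of all genes did). This sign is not the size of a response. SLC38A1 and SLC6A9 are among the 17 but fell in TC71 and did not pass in EW8. SLC1A1 and SLC6A6 are among the 3 but fell in EW8 and did not pass in TC71. At an unadjusted p below 0.05, 18 were higher (28.8% of all genes were) and 3 lower (25% were). The median difference was 0.19 over the transporter genes and 0.04 over all genes. How many clones gave the libraries of a line is not stated.

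At 0 h, 6 transporter genes were called higher in EW8 than in TC71 (4.77% of all genes were) and 6 lower (11.9% were), by edgeR and by DESeq2 alike. At an adjusted p below 0.05 and any fold, 17 were higher (32.8% of all genes were) and 12 lower (32.9% were). The libraries of the lines did not overlap for 30 of the 33 genes, and for 68.3% of all genes. SLC7A2 was described above. The others that were higher in EW8 were SLC7A8 (log2 difference 1.82, adjusted p = 3.24e-25, edgeR), SLC6A8 (1.56), SLC7A7 (1.54), SLC38A1 (1.20) and SLC7A5 (1.13). SLC7A8 had 76.0, 80.8 and 76.6 CPM in EW8 and 21.6, 22.9 and 21.7 in TC71. For SLC6A8 these were 48.9, 51.8 and 46.4 against 17.5, 17.9 and 14.4 CPM. The groups of both genes were far apart.

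Lower in EW8 were SLC38A5 (log2 difference -4.12, SE 0.20, adjusted p = 3.5e-19, edgeR), SLC7A10 (-2.88), SLC43A2 (-2.71), SLC7A3 (-2.20), SLC38A4 (-1.61) and SLC6A16 (-1.05). The value of SLC43A2 rests on 2, 2 and 4 counts in EW8, and the gene passed the filter on low counts through TC71, where it is high, so that its size is uncertain. The first 5 of these 6 are also called higher at 48 h in EW8. Both comparisons use the same EW8 libraries at 0 h, so that a low value there enters both and the overlap is no separate result. At 48 h the EW8 levels of SLC38A5, SLC7A10, SLC43A2 and SLC7A3 were still below each TC71 library at 0 h. SLC6A16 was at -0.99 without replicate 3 of EW8 at 0 h, and SLC7A5 at 0.99 with library totals alone, in both cases just under a fold of 2.

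A list of 9 transporter genes known as ATF4 targets was followed separately: SLC1A4, SLC1A5, SLC3A2, SLC6A9, SLC7A1, SLC7A3, SLC7A5, SLC7A11 and SLC38A2. In EW8, 4 rose (SLC1A4, SLC3A2, SLC7A3 and SLC7A11), 2 of them past a fold of 2, 2 fell (SLC7A1 and SLC7A5), and 3 did not pass. Of all genes tested, 37% rose, 13.9% were called higher and 31.6% fell, so that these counts are near the background. In TC71, 2 rose (SLC1A4 and SLC3A2), 5 fell (SLC1A5, SLC6A9, SLC7A1, SLC7A5 and SLC7A11) and 2 did not pass, where 22.9% of all genes rose and 19.2% fell. The median log2 fold change of the 9 was 0.05 in EW8 and -0.26 in TC71, against 0.03 and -0.00 over all genes tested. The genes that rose in both lines were thus the heavy chain and the neutral exchanger SLC1A4.

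Sequences around the starts of these genes are shown because ATF4 acts through a short element that can be searched for. RefSeq promoter windows (GRCh38.p14, 250 bases before to 50 after a start) were found for 27 of the 34 genes, in 48 windows, and none for SLC38A3, SLC43A3, SLC6A15, SLC6A6, SLC7A11, SLC7A2 and SLC7A3. On both strands, the C/EBP-ATF response element TGATGNAA was searched, the AP-1 site TGANTCA, and the E-box CACGTG, which is bound by MYC and TFEB. None of the 3 motifs contains another. TGATGNAA occurred in 6 of the 48 windows and in 3.62% of all 35116 windows, TGANTCA in 8 and 7.71%, and CACGTG in 9 and 7.26%. Windows of a gene can overlap and are not separate units. The same AP-1 match of SLC7A8 is counted in overlapping windows, so that the 8 windows belong to 7 genes. A match describes letters and not a bound site.

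The 30 bases around a match are given for 4 genes, 5′ to 3′ on the strand of the gene, with the match in capitals. For SLC1A4 and SLC3A2 the C/EBP-ATF element reads as its reverse complement. SLC3A2 has 3 windows, and both of its matches lie in the window whose start is 803 bases from that of the canonical transcript, in an intron of that transcript.
SLC3A2, AP-1 site, chr11:62881651-62881680, + strand: acgagggtgggTGACTCAgcgtcctccttc
SLC3A2, C/EBP-ATF element, chr11:62881719-62881748, + strand: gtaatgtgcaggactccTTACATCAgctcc
SLC1A4, C/EBP-ATF element, chr2:64989381-64989410, + strand: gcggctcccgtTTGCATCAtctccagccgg
SLC7A1, C/EBP-ATF element, chr13:29595663-29595692, - strand: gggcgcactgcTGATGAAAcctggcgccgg
SLC7A5, E-box, chr16:87869619-87869648, - strand: gccggacgacgCACGTGctccgagctgggc

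The first base of the match lies 37 bases before the start of its window for the AP-1 site of SLC3A2 and at base 38 after it for the C/EBP-ATF element. The matches of SLC1A4 and SLC7A1 lie at the canonical start, 7 bases before it and at base 8 after it, with that of SLC7A1 inside the first exon. That of SLC7A5 lies 130 bases before the start, outside the transcript. The E-box was found for 9 genes and is printed only for SLC7A5. Of these, SLC38A5, SLC43A1 and SLC7A8 rose in EW8, and SLC7A5, SLC36A1 and SLC6A16 fell there. SLC1A5, SLC38A7 and SLC7A7 did not pass in EW8. Of the 6 genes with a C/EBP-ATF element in a window, SLC3A2 and SLC1A4 rose in both lines, SLC7A1 and SLC1A3 fell in both, and SLC1A5 and SLC38A1 did not pass in EW8 and fell in TC71. The windows that hold the element start far from the canonical start for SLC1A3 (10018 bases), SLC1A5 (3780) and SLC38A1 (2527).

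Among 27 genes of the amino acid response outside these families, 11 were called higher in EW8 (13.9% of all genes were) and 0 lower (3.35% were). At any fold 18 rose (37% of all genes did) and 9 fell (31.6% did, near the share in the list), and these 9 include the asparagine synthetase ASNS (-0.55) and the serine synthesis enzymes PHGDH (-0.63) and PSAT1 (-0.67). DDIT3 (log2 5.18), ATF3 (4.89) and PPP1R15A (3.67), which encode stress-induced regulators, and CHAC1 (2.16) and SESN2 (2.43) were among those called. The mRNA of ATF4 itself was at -0.27, a fall (adjusted p = 1.91e-08, edgeR), though ATF4 is controlled at translation, which was not measured here. In TC71, 5 were called higher, DDIT3, ATF3, PPP1R15A, DDIT4 and SESN2, and 1, ASNS (-1.08), lower, with 12 rising and 9 falling at any fold. Of all genes in TC71, 3.26% were called higher and 0.854% lower, and 22.9% rose and 19.2% fell. ASNS thus fell in both lines beside DDIT3 rising in both.

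Of 24 tested genes through which mTORC1 senses amino acids, 3 were called higher in EW8, the folliculin gene FLCN (1.31), its partner FNIP1 (1.37) and SESN3 (1.21), and 0 lower. Called genes were no more frequent than among all genes (13.9%). At any fold 8 rose and 9 fell, where 37% and 31.6% of all genes did. Of the 5 genes of the Ragulator scaffold, LAMTOR1, LAMTOR2, LAMTOR4 and LAMTOR5 fell and LAMTOR3 rose (0.16, adjusted p = 0.0254, edgeR). In TC71 none was called (3.26% of all genes were called higher and 0.854% lower), 8 rose (22.9% of all genes did) and 4 fell (19.2% did). Of 16 tested amino acid transporters of other families, 2 were called higher in EW8, the lysosomal exporter SLC66A1 (1.10) and SFXN3 (1.04), again no more than the share of all genes, and 5 rose and 8 fell. SFXN3 held only 7 to 28 counts in the EW8 libraries. In TC71, 1 of these 16 rose and 5 fell, beside the same shares of all genes. The median log2 fold change of these 16 was -0.12 in EW8.

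The patterns most like those of the 2 genes with the largest called rise in EW8 were sought among the transporter genes, by the correlation of log2 CPM over the 12 libraries, which share 2 lines and 2 times. SLC38A3 was most like SLC3A2 (r = 0.961), SLC38A6 (0.957) and SLC38A9 (0.901). SLC43A2 was most like SLC43A3 (r = 0.942), SLC7A10 (0.933) and SLC38A10 (0.931). The first pattern is highest in EW8 at 48 h and the second is higher in TC71 than in EW8. SLC43A2 holds only 2 to 28 counts a library, and its correlations mostly carry the difference between the lines. They therefore do not describe its rise in EW8. Correlations of other pairs of transporter genes are not given for comparison.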

How the data were processed

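The authors isolated polyadenylated RNA, prepared stranded TruSeq libraries, used FastQC for read quality and aligned to hg38 with STAR. They deposited raw counts per gene, not normalized, with 1 column for each of the 12 libraries. The counting tool, annotation release and strand setting are not given in the sources used here. Every gene in the table has at least 21 counts over the 12 libraries, which was computed here from the table.

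Tests used edgeR 4.0.16 (R 4.3.3) on all 4 groups of counts: filterByExpr (minimum count 10, minimum total 15), TMM factors, a robust quasi-likelihood fit, and Benjamini-Hochberg adjustment over the 16515 genes tested. The study's own tool, DESeq2 (version 1.42.0 here), was an alternative. TPM-like levels divide counts by the length of the GENCODE release 44 canonical transcript. Confidence intervals are at 95%, the floor is 3 counts in a library, and both cover counting error only where they come from counts. Each SE beside an edgeR log2 value was derived here, as its absolute value over the square root of edgeR's F statistic. The intervals of these values extend that SE by a quantile of the t distribution. The biological coefficient of variation was 4.17%.

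Given with values are the known ATF4 targets, the heavy chain, the 6 transporter genes with the largest called change in each line and direction (5 for the other comparisons) that had non-overlapping libraries and a mean of at least 20 counts in the higher group, and the 6 highest levels per length. Other transporter genes given with values, such as SLC7A6, SLC38A9 and SLC43A1, were chosen after their values were seen. The genes and all lists were chosen with earlier results of these data known. Likeness of patterns used log2(CPM + 0.5). Promoter windows are from RefSeq. Alternatives were DESeq2's size factors, library totals alone, no filter, at least 10 counts in every library, DESeq2's Wald test, a block for the replicate number, a separate fit of each line, no fold threshold, and leaving out each library. Figures were drawn with matplotlib 3.10.9.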

Additional observations from a re-analysis of the deposited data

Results flagged for a closer look

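By edgeR's test, the EW8 response minus the TC71 response was positive for 17 transporter genes (25.7% of all genes tested). It was negative for 3 (22.4%). This difference is signed and does not rank the size of the responses. SLC38A1 is among the 17 with a fall in TC71 (-0.65) and -0.09 in EW8. SLC1A1 is among the 3 with a fall in EW8 (-0.53) and -0.04 in TC71. A positive difference past a fold of 2, called for 7.28% of all genes, was called for SLC38A5 (1.72 on the log2 scale), SLC38A3 (1.70), SLC43A2 (1.64), SLC7A3 (1.47) and SLC3A2 (1.08). The call of SLC38A3 was lost without replicate 2 of TC71 at 0 h (1.18, adjusted p = 0.107 by edgeR). That of SLC43A2 was lost with DESeq2 (1.69, adjusted p = 0.0661) and in 4 of the 12 fits that leave out a library (1.39 to 1.76). Both genes passed the filter on low counts through the line where they are high. For SLC7A11 the difference was 0.56, below that fold, with a rise in EW8 and a fall in TC71 that each passed the test. SLC3A2 and SLC7A11 rest on at least 1074 counts in every library, whereas SLC43A2 and SLC38A3 rest on 2 to 39. With groups of 3 libraries, no test for a single outlying library was made.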

How the results depend on the processing

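The count of transporter genes called higher in EW8, 7, was 6 to 7 without single libraries, 8 with library totals alone, 6 with each line fitted alone, 4 with a minimum of 10 counts a library, where 28 of the genes were tested, and 16 with no fold threshold. The count called in the difference between the lines, 5, was 3 (without replicate 2 of TC71 at 0 h) to 6 without single libraries, 2 with a minimum of 10 counts a library, and 17 with no fold threshold. With no fold threshold the counts lower were 10 in EW8 and 3 in the difference, those in TC71 were 10 and 11, and those at 0 h were 17 and 12. At 0 h the counts of 6 and 6 were 6 to 7 and 5 to 6 without single libraries. With a minimum of 10 counts a library they were 4 and 4, without SLC7A2, SLC7A7, SLC38A5 and SLC43A2. DESeq2's size factors and no filter left each count of calls past a fold of 2 as it was, and the counts called in TC71 and those called lower in EW8 and in the difference were 0 whichever single library was left out.

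The replicate numbers did not pair the libraries: same-numbered libraries of the 2 times correlated at -0.17 to 0.02 in EW8 and -0.29 to -0.16 in TC71 in their deviations from the group means. No library at 0 h correlated best with the 48 h library of its own number. With the number as a block, the counts stayed at 7 and 0 in EW8, 0 and 0 in TC71, 5 and 0 in the difference, and 6 and 6 at 0 h, and no call of a gene named by the rule changed.

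Single genes changed sign 18 times, counted over the transporter genes named by the rule. Only for these were the log2 values followed over the alternatives. With library totals alone, which gave a median of all genes of 0.16 in EW8, 0.05 in TC71, 0.12 in the difference and -0.14 at 0 h, these were SLC6A8 (0.0289), SLC6A9 (0.107) and SLC38A1 (0.0356) in EW8, SLC38A5 in TC71 (0.0125), SLC1A4 (0.0103) and SLC7A1 (0.0346) in the difference, and SLC7A1 at 0 h (-0.110). With each line fitted alone it was SLC38A2 in EW8 (-0.0123). Without single libraries, log2 values ranged from -0.0769 to 0.0319 for SLC38A2, -0.0209 to 0.0645 for SLC1A5 and -0.0809 to 0.0167 for SLC6A9 in EW8. In TC71 they ranged from -0.0720 to 0.736 for SLC38A3, -0.0679 to 0.00464 for SLC38A5 and, -0.967 to 0.245 for SLC7A2. In the difference SLC7A2 ranged from -0.694 to 0.517. Its TC71 libraries hold at most 2 counts, so these fitted values depend on the prior count and are no measured change. SLC7A1 at 0 h ranged from -0.0014 to 0.0643. The cause was not tested. SLC38A4 passed a fold of 2 in the difference under 4 settings (1.01 to 1.04), and SLC38A3 at 0 h without replicate 2 of TC71 (1.21). Depth limits SLC6A4, SLC7A2 in TC71, SLC43A2, SLC38A3, SLC38A5, SLC7A3 and SLC7A7, among others.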
